A study of Mus musculus with 8 samples.

Results

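Prostanoid synthesis and reception were examined in mouse brain pericyte cultures through 10 genes, taken by symbol from the 54532 Ensembl identifiers in the count files: 2 cyclooxygenases (*Ptgs1* and *Ptgs2*), the terminal synthases *Ptges* and *Ptgis*, and the receptors *Ptger1*, *Ptger2*, *Ptger3*, *Ptger4*, *Ptgir* and *Ptgfr*. *Ptgds* was left out by the rule that set the list. Each of the 10 symbols matched 1 identifier, and all 10 passed edgeR's filter on low expression. Bulk RNA-seq had been performed on 8 primary cultures of wild-type (WT) brain pericytes, of which 4 received TGF-β1 at 5 μg per mL for 48 h and 4 received vehicle for the same time. The labels give no strain, sex or age. All cultures had been expanded through several passages in the same growth factor and serum medium, so both groups share these additions. The methods describe isolates that each received both treatments, but the labels number the vehicle cultures 1 to 4 and the TGF-β1 cultures 5 to 8, and the groups were compared unpaired. Nothing in the labels separates the cultures by animal, so p-values measure the spread between these libraries.

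Prostanoids are short-lived lipid mediators made from arachidonic acid, which phospholipases release from membranes. The cyclooxygenases turn it into the intermediate PGH2, from which terminal synthases make PGE2, prostacyclin and other products. These act close to their source on G protein-coupled receptors, and in vessels they set the tone of contractile mural cells, with prostacyclin as a classic relaxing signal. The receptors differ in coupling. EP2, EP4 and the prostacyclin receptor IP raise cAMP through Gs, EP3 mostly lowers cAMP through Gi, and EP1 and the PGF2α receptor FP raise calcium.

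With TGF-β1, genes of this pathway moved in both directions. Both cyclooxygenases rose, *Ptgs2* by 2.00-fold and *Ptgs1* by 1.54-fold, while both terminal synthases fell, *Ptgis* to 81.3% and *Ptges* to 90.3% of the vehicle level. Among the receptors, *Ptger3* fell to 26.3%, and *Ptgfr*, *Ptger2* and *Ptgir* rose by 2.04-fold, 1.96-fold and 1.54-fold. Calls were made at an adjusted p under 0.05 (edgeR quasi-likelihood test, Benjamini-Hochberg adjustment over all 22544 genes tested). They covered 8 of the 10 genes, 5 up and 3 down, where the shares over all genes tested were 20.9% higher and 20.3% lower, or 41.3% in either direction. The median log2 fold change was 0.42 over the 10 genes and -0.01 over all genes tested. In bulk RNA, fewer cells of a type and less RNA per cell cannot be told apart.

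The depth was even, at 45255235 to 47651397 counts per culture (exact permutation test between the groups, two-sided, p = 0.857). Of 7 genes known to respond to TGF-β, 6 were higher in the treated cultures. The other, *Tgfbi*, was lower, at 35.3% of the vehicle level (log2 fold change -1.50). Of 10 pericyte markers, *Pdgfrb*, *Cspg4*, *Anpep* and *Notch3* were at 28.7 CPM or more in every culture, whereas *Kcnj8*, *Abcc9* and *Vtn* had at most 9 counts in any culture. *Rgs5* was at 1.91 to 9.08 CPM, *Des* at 0.545 to 0.779 CPM and *Higd1b* at 5 to 25 counts. Of the 7 pericyte markers tested, *Pdgfrb* and *Cspg4* were higher with TGF-β1 (log2 fold changes 0.53 and 1.03). *Rgs5* and *Anpep* were lower (-2.02 and -0.43), and *Des*, *Notch3* and *Higd1b* were not called. Markers of other cells were uneven too. The endothelial gene *Cdh5* was at 348 to 382 CPM, *Flt1* at 80.0 to 100.6 CPM and *Kdr* at 16.2 to 20.4 CPM. *Tek* was at 1.83 to 3.40 CPM, *Esam* at 2.46 to 3.90 CPM and *Pecam1* at 0.779 to 1.64 CPM. *Cldn5* and *Tie1* were at 10 counts or fewer. The 8 endothelial markers summed to 474.0 to 486.5 CPM with vehicle and 474.4 to 499.6 CPM with TGF-β1. Of the 6 tested, *Flt1* was higher (log2 fold change 0.28), *Tek* was lower (-0.45), and 4, *Cdh5* among them, were not called. The 6 fibroblast markers summed to 4481 to 4706 CPM with vehicle and 6552 to 6829 CPM with TGF-β1, and *Lum* had 6 counts or fewer. Of the 5 tested, the collagen genes *Col1a1*, *Col1a2* and *Col3a1* were higher (log2 fold changes 0.67, 0.43 and 0.64). *Dcn* was lower (-0.16), and *Pdgfra* was not called. The 7 leptomeningeal fibroblast markers summed to 279.9 to 296.5 CPM with vehicle and 299.1 to 325.3 CPM with TGF-β1. Of the 4 tested, *Crabp2* was higher (log2 fold change 1.26), *Foxc1* was lower (-0.31), and *Slc13a4* and *Cldn11* were not called. *Foxc1* was at 179 to 245 CPM, and *Slc6a13*, *Slc22a6* and *Aldh1a2* were at 10 counts or fewer. The 6 astrocyte markers summed to 238.5 to 249.7 CPM with vehicle and 207.7 to 222.0 CPM with TGF-β1, and *Aqp4* had at most 6 counts. Of the 5 tested, *Slc1a2* and *S100b* were lower (log2 fold changes -1.24 and -1.55), *Aldh1l1* was higher (0.77), and *Gja1* and *Gfap* were not called. The part of such cells in the results below was not tested.

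The sequences upstream of 3 genes are shown, because both cyclooxygenases rose and *Ptger3* fell most. They are the 250 bases before the RefSeq start on GRCm38.p6, written on the strand of the gene, and capitals mark motif matches. *Ptgs1* was read from chr2:36230176-36230425 (plus strand), *Ptgs2* from chr1:150099781-150100030 (plus strand) and *Ptger3* from chr3:157566626-157566875 (plus strand).
Ptgs1: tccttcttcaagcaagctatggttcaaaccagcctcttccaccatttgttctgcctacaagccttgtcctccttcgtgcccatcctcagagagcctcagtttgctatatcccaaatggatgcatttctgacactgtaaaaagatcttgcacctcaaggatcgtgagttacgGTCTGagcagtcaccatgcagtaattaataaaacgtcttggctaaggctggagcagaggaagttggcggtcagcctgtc
Ptgs2: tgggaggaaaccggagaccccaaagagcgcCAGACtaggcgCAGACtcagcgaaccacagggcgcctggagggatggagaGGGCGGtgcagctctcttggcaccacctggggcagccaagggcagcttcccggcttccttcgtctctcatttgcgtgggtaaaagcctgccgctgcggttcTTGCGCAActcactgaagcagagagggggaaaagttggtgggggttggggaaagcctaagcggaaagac
Ptger3: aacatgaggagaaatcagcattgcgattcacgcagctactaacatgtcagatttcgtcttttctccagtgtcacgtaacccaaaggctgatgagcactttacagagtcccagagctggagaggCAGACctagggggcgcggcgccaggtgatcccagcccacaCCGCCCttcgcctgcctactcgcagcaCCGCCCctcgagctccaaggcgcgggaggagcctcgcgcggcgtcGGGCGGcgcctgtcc

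Short motifs were searched in the 300 bases around the start (250 before and 50 after), on both strands except for TATAA, after the sequences had been read. RefSeq windows were found for 8 of the 10 genes and for 32851 starts in all. The SMAD box CAGAC, the letters bound by the transcription factors downstream of TGF-β, was in the windows of *Ptgs1*, *Ptgs2*, *Ptges*, *Ptger3*, *Ptger4* and *Ptgir* and in 49.6% of all windows. It occurred in genes that rose, fell or were not called. In *Ptgs2* it stood 3 times, with first bases 220 and 209 bases before and 35 bases after the start. The palindrome TTGCGCAA, a C/EBP motif, was in the *Ptgs2* window only among the 8 (69 to 62 bases before the start) and in 0.183% of all windows. *Ptgs2* also held the CRE core CGTCA (20.8% of all windows) and the E-box CACGTG (7.15%), which overlap each other in 20 bases after its RefSeq start (chr1:150100038-150100057, plus strand).
Ptgs2 CRE and E-box: ccactaCGTCACGTGgagtc
The GC box GGGCGG (35.7% of all windows) was in 6 of the 8 windows. It stood 4 times in *Ptger4*, 3 times in *Ptger3* (in both orientations), 2 times each in *Ptges*, *Ptgir* and *Ptgfr*, and once in *Ptgs2*. TATAA (17.5%) and the AP-1 motif TGANTCA (7.81%) were in none of the 8 windows. A match is a description of the letters and was not tested for binding.

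*Ptgs2* encodes COX-2, the cyclooxygenase known as the inducible one. It lies on chromosome 1 of GRCm38 from 150100031 to 150108227 (ENSMUSG00000032487), and no other annotated gene shares its exons. Values are in CPM, the usual scaling of counts to a common library size, here with TMM factors. Its vehicle values were 98.2, 96.1, 104.9 and 98.0 CPM, and its TGF-β1 values were 188.9, 212.2, 193.7 and 199.0 CPM. The lowest TGF-β1 culture was well above the highest vehicle culture. The mean went from 99.3 ± 3.86 to 198.4 ± 10.03 CPM (SD, n = 4 each), which is 1.00 on the log2 scale with a standard error of 0.03 (adjusted p = 8.86e-24, edgeR quasi-likelihood test).

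*Ptgs1* encodes COX-1, the form that many tissues make all the time. It lies on chromosome 2 from 36230426 to 36252272 (ENSMUSG00000047250). Vehicle cultures were at 74.0, 77.8, 77.5 and 78.9 CPM and TGF-β1 cultures at 112.0, 124.2, 118.8 and 121.1 CPM. The groups were again apart, with a smaller step than for *Ptgs2*. On the log2 scale it was 0.63 with a standard error of 0.03 (adjusted p = 1.21e-21, edgeR quasi-likelihood test), and an antisense transcript, *Gm43621*, lies opposite 3.81% of its exon bases.

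To compare levels between genes, CPM was divided by the kilobases of annotated exon. The 2 cyclooxygenases together went from 41.5 ± 1.03 to 74.0 ± 3.44 CPM per kilobase (SD, n = 4 each). *Ptgs2* made up 52.2% ± 1.152 of this sum with vehicle and 58.6% ± 0.531 with TGF-β1 (SD, n = 4 each). Its share ranged from 51.2% to 53.4% in the vehicle cultures and from 58.0% to 59.2% in the TGF-β1 cultures. With the longest transcript as the length, the shares were 45.3% and 51.8%, so the groups were as far apart but the larger of the 2 genes with vehicle was then *Ptgs1*.

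The synthases moved the other way. *Ptges* encodes the inducible microsomal PGE2 synthase, which works next to COX-2, and lies on chromosome 2 from 30889471 to 30929863 (ENSMUSG00000050737). Its vehicle values were 150.7, 153.9, 149.0 and 145.9 CPM and its TGF-β1 values were 136.1, 134.4, 136.8 and 133.8 CPM. The ranges were apart, but the step was small. On the log2 scale it was -0.15 with a standard error of 0.03 (adjusted p = 4.85e-06, edgeR quasi-likelihood test), and 57.4% of all genes tested had a change at least as large.

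*Ptgis* encodes prostacyclin synthase, a cytochrome P450 enzyme typical of vessel walls, and lies on chromosome 2 from 167191805 to 167240604 (ENSMUSG00000017969). It was at 103.2, 103.0, 102.0 and 106.1 CPM with vehicle and at 89.5, 82.0, 82.8 and 82.4 CPM with TGF-β1. TGF-β1 replicate 5 stood above the other TGF-β1 cultures and still below all vehicle cultures. The log2 fold change was -0.30 with a standard error of 0.03 (adjusted p = 1.11e-11, edgeR quasi-likelihood test).

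With vehicle the per-length level of *Ptgs2* was 0.569 ± 0.0289 of that of *Ptges*, and with TGF-β1 it was 1.26 ± 0.0728 times that level (SD, n = 4 each). The ratio of *Ptges* to *Ptgis* moved less, from 0.945 ± 0.0334 to 1.05 ± 0.0393 (SD, n = 4 each). These ratios are descriptions of the same libraries and carry no test of their own.

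**Figure D1:**
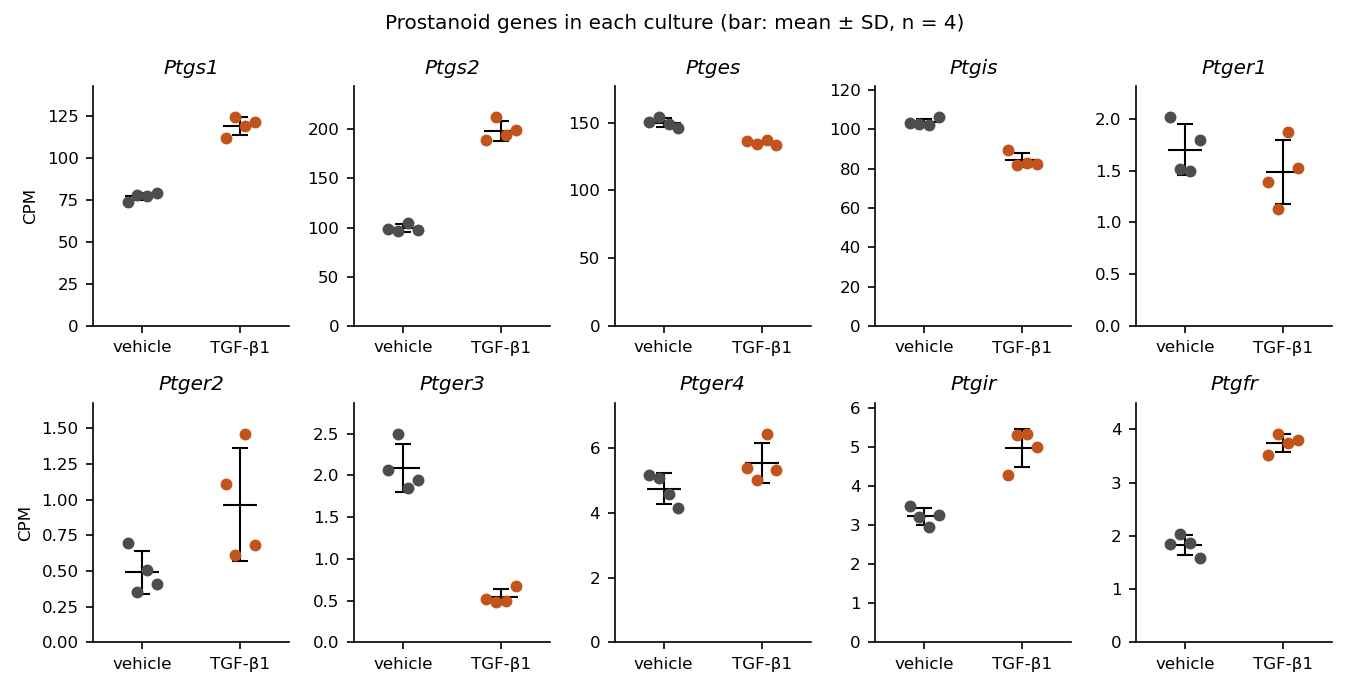
CPM of the 10 prostanoid genes (vertical axes from 0, each on its own scale) in the 4 vehicle (grey) and 4 TGF-β1 (orange) cultures, with points for cultures and bars for the mean ± SD. The groups are apart in 7 panels and overlap for *Ptger1*, *Ptger2* and *Ptger4*.

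For 7 of the 10 genes the ranges of the groups were apart, against 37.9% of all genes tested, as the plot of CPM by culture shows. The enzymes and the receptors differed mainly in level. With vehicle, *Ptgs1*, the lowest enzyme, was at 19.8 ± 0.549 CPM per kilobase and *Ptgir*, the highest receptor, at 0.969 ± 0.0649 CPM per kilobase (SD, n = 4 each), a ratio of 20.5.

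*Ptger3* encodes EP3, the PGE2 receptor that mostly acts through Gi, and is made in splice forms that differ in their intracellular tail. The gene lies on chromosome 3 from 157566892 to 157645888 (ENSMUSG00000040016), with no other annotated gene on its exons. Vehicle cultures had 95, 114, 88 and 90 counts (2.06, 2.50, 1.85 and 1.95 CPM), and TGF-β1 cultures had 24, 22, 23 and 32 counts (0.523, 0.479, 0.501 and 0.680 CPM). The highest TGF-β1 culture had less than any vehicle culture by a wide margin. The log2 fold change was -1.93 with a standard error of 0.20 (adjusted p = 3.46e-11, edgeR quasi-likelihood test), and 0.954% of all genes tested changed at least as much. Counts per gene do not separate the splice forms.

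*Ptgfr* encodes FP, the PGF2α receptor, and lies on chromosome 3 from 151796502 to 151837630 (ENSMUSG00000028036). It had 85, 93, 89 and 73 counts with vehicle (1.84, 2.04, 1.87 and 1.58 CPM) and 161, 180, 172 and 179 counts with TGF-β1 (3.51, 3.92, 3.75 and 3.81 CPM). The groups were apart and tight. Its log2 fold change was 1.03 with a standard error of 0.13 (adjusted p = 7.23e-09, edgeR quasi-likelihood test).

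*Ptgir* encodes IP, the prostacyclin receptor, and lies on chromosome 7 from 16906490 to 16910905 (ENSMUSG00000043017). Its values were 3.49, 3.20, 2.96 and 3.27 CPM with vehicle and 4.29, 5.31, 5.34 and 5.00 CPM with TGF-β1. It thus rose in all 4 TGF-β1 cultures while *Ptgis*, which makes its ligand, fell. Its log2 fold change was 0.63 with a standard error of 0.11 (adjusted p = 5.01e-06, edgeR quasi-likelihood test).

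The remaining PGE2 receptors were less clear. *Ptger2* encodes EP2 and lies on chromosome 14 from 44988195 to 45003820 (ENSMUSG00000037759). It had 32, 16, 24 and 19 counts with vehicle (0.694, 0.351, 0.505 and 0.411 CPM) and 51, 28, 67 and 32 counts with TGF-β1 (1.11, 0.609, 1.46 and 0.680 CPM). The ranges overlapped, and TGF-β1 replicates 5 and 7 were well above replicates 6 and 8. Its log2 fold change was 0.97 with a standard error of 0.28 (adjusted p = 0.00417, edgeR quasi-likelihood test), and without TGF-β1 replicate 7 it was 0.70 with an adjusted p of 0.0653. Annotated genes on the opposite strand share 4.74% of the *Ptger2* exon bases. *Gm17173*, which is among them, had the same log2 fold change of 0.97 (standard error 0.23). Its TGF-β1 counts were 60, 55, 37 and 48, lowest in replicate 7, where *Ptger2* was highest. Without a stated strand setting in the counting, reads from *Ptger2* and *Gm17173* cannot be told apart in the shared bases.

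*Ptger4*, which encodes EP4, had the highest per-length level of the PGE2 receptors and lies on chromosome 15 from 5206661 to 5244187 (ENSMUSG00000039942). Its values were 5.18, 5.08, 4.605 and 4.16 CPM with vehicle and 5.38, 5.03, 6.45 and 5.34 CPM with TGF-β1, and the ranges overlapped. Its log2 fold change was 0.22 (95% interval 0.02 to 0.43, adjusted p = 0.0745, edgeR quasi-likelihood test), so it was not called. It passed the threshold in 1 of 8 edgeR fits that left out a culture (vehicle replicate 1, adjusted p = 0.0466). The opposite-strand genes *Ttc33* and *Gm15937* share 16.5% of the *Ptger4* exon bases. *Ttc33* was at 23.8 to 27.7 CPM, and with the strand setting not stated the *Ptger4* count is uncertain in part.

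*Ptger1*, which encodes EP1, had 52 to 93 counts per culture and a log2 fold change of -0.20 (95% interval -0.55 to 0.15, adjusted p = 0.393, edgeR quasi-likelihood test). It lies on chromosome 8 from 83666678 to 83672753 (ENSMUSG00000019464). With the strand setting of the counting not stated, its count is uncertain.

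**Figure D2:**
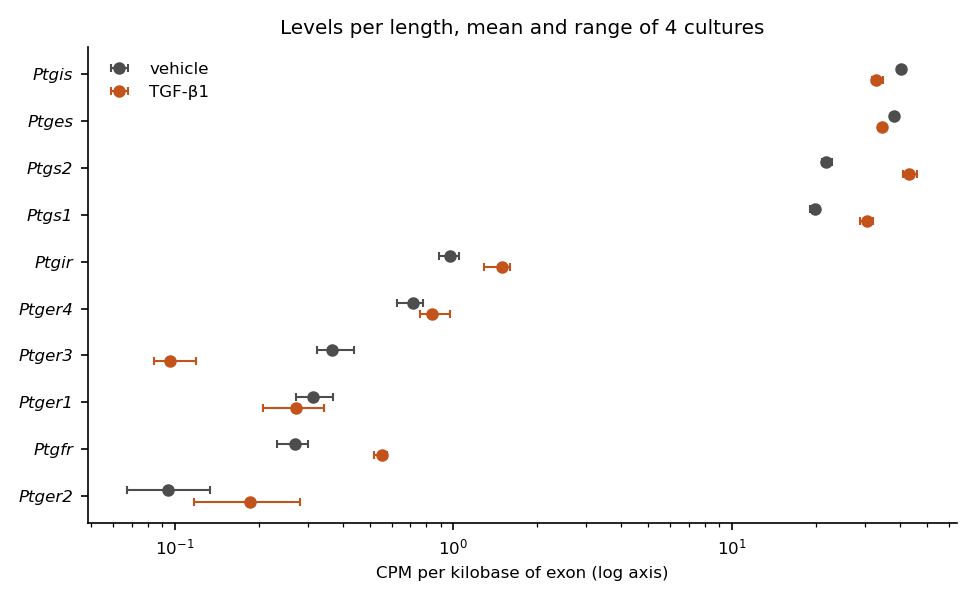
CPM per kilobase of exon (log axis) of each gene in vehicle (grey) and TGF-β1 (orange) cultures, with the mean as the point and the lowest to highest of 4 cultures as the bar. The 4 enzymes lie at 19.1 CPM per kilobase or more in every culture and the 6 receptors at 1.60 or less, and *Ptger3* moves from rank 7 with vehicle to the lowest rank with TGF-β1.

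In the order of per-length levels, the vehicle cultures ran *Ptgis*, *Ptges*, *Ptgs2*, *Ptgs1*, *Ptgir*, *Ptger4*, *Ptger3*, *Ptger1*, *Ptgfr* and *Ptger2*. The neighbours *Ptger3* and *Ptger1*, and *Ptger1* and *Ptgfr*, overlapped between cultures, and the other neighbours did not. With TGF-β1 the order was *Ptgs2*, *Ptges*, *Ptgis*, *Ptgs1*, *Ptgir*, *Ptger4*, *Ptgfr*, *Ptger1*, *Ptger2* and *Ptger3*. There *Ptges* overlapped *Ptgis*, *Ptgis* overlapped *Ptgs1*, and *Ptger2* overlapped both *Ptger1* and *Ptger3*. *Ptgs2* thus went from the third place to the first, above every other gene of the list in all 4 cultures. With the longest transcript as the length, *Ptgs2* was still first by its mean with TGF-β1 but its range overlapped that of *Ptgs1*, and with vehicle *Ptger4* stood above *Ptgir*.

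**Figure D3:**
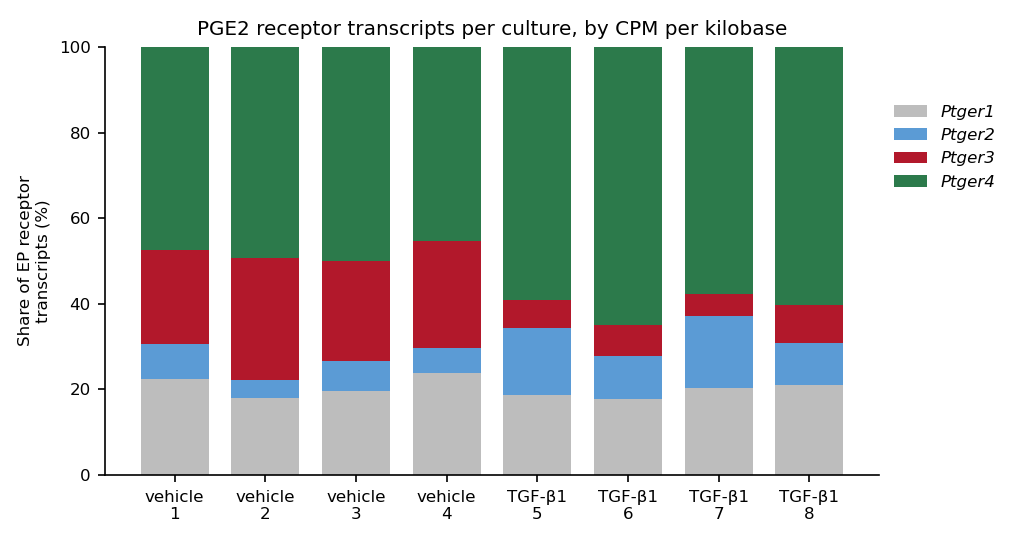
Share of the summed per-length level of the PGE2 receptors (vertical axis, percent) held by *Ptger1*, *Ptger2*, *Ptger3* and *Ptger4* in each of the 8 cultures. The red *Ptger3* segment is 22.02% to 28.4% in the vehicle cultures and 5.24% to 8.97% in the TGF-β1 cultures.

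The make-up of the PGE2 receptors shifted while their sum did not separate the groups. The summed per-length level of the 4 *Ptger* genes was 1.49 ± 0.130 CPM per kilobase with vehicle and 1.39 ± 0.216 with TGF-β1 (SD, n = 4 each), with overlapping ranges. *Ptger3* held 24.7% ± 2.72 of this sum with vehicle and 7.03% ± 1.54 with TGF-β1, and *Ptger4* went from 48.0% ± 2.03 to 60.5% ± 3.15 (SD, n = 4 each). Since shares add up to the whole, a fall of one raises the others. Without *Ptger1*, whose count is uncertain, *Ptger3* held 31.2% ± 2.91 and 8.74% ± 1.98 (SD, n = 4 each). The *Ptger4* count is uncertain in part as well, because of exon bases shared with the opposite strand. Over all 6 receptors, those coupled to Gs (*Ptger2*, *Ptger4* and *Ptgir*) held 65.2% ± 1.03 with vehicle and 73.2% ± 1.21 with TGF-β1 (SD, n = 4 each). The receptors that raise calcium (*Ptger1* and *Ptgfr*) went from 21.4% ± 0.535 to 24.0% ± 0.680, and *Ptger3* alone from 13.5% ± 1.51 to 2.81% ± 0.536 (SD, n = 4 each). The groups were apart in all 3 shares, but these shares also add up to the whole. The larger shares of both other classes and the smaller share of *Ptger3* are therefore not separate results. Unlike the sum of the *Ptger* genes, the summed level of all 6 receptors was higher with TGF-β1, without overlap. It was 2.73 ± 0.192 CPM per kilobase with vehicle and 3.44 ± 0.284 with TGF-β1 (SD, n = 4 each).

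The other genes of the pathway were taken from a list of 28 by role, of which 23 were tested. Of these, 10 rose and 5 fell by the same edgeR test and threshold, with a median log2 fold change of 0.17. Over all genes tested, 20.9% were higher and 20.3% lower. The largest rise was in *Slco2a1*, the prostaglandin transporter that carries prostanoids into cells. Its values were 25.5, 25.3, 28.1 and 25.1 CPM with vehicle and 57.7, 60.3, 62.8 and 57.5 CPM with TGF-β1. This is 1.20 on the log2 scale with a standard error of 0.04 (adjusted p = 3.24e-27, edgeR). Its breakdown partner *Hpgd*, which inactivates prostaglandins after uptake, had at most 6 counts in any culture and was not tested. The exporter *Abcc4* and the reductase *Zadh2* rose by log2 fold changes of 0.17 and 0.18, and *Ptgr2*, which reduces a prostaglandin breakdown product, fell by 0.16.

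Substrate release moved in both directions. *Pla2g4a*, the cytosolic phospholipase that supplies arachidonic acid to the cyclooxygenases, rose by a log2 fold change of 0.23 (standard error 0.03), from 94.6 ± 3.30 to 110.6 ± 2.53 CPM (SD, n = 4 each). Its relative *Pla2g4c* fell by 0.97 (standard error 0.05), from 29.1 ± 1.149 to 14.9 ± 0.310 CPM (SD, n = 4 each). The secreted phospholipases *Pla2g2e* and *Pla2g12a* rose by log2 fold changes of 1.05 and 0.42, and *Pla2g3* fell by 0.69. Of the 12 genes in this list, 3 were too low to be tested and 4 were not called.

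Among the other synthases and receptors, *Tbxas1*, the thromboxane synthase, fell by 0.91 on the log2 scale (standard error 0.10), from 7.81 ± 1.08 to 4.17 ± 0.448 CPM (SD, n = 4 each). *Akr1b3*, an aldose reductase that can make PGF2α, rose by a log2 fold change of 0.50 (standard error 0.03), in the same cultures in which the PGF2α receptor gene *Ptgfr* was higher. The constitutive PGE2 synthases *Ptges2* and *Ptges3* rose by log2 fold changes of 0.13 and 0.17, against the fall of *Ptges*, and *Ptges2* was close to the threshold (adjusted p = 0.0452, edgeR). *Ptgdr*, which encodes the PGD2 receptor DP1, fell by 1.64 (standard error 0.29) from 31 to 52 counts per vehicle culture to 11 to 16 per TGF-β1 culture. The thromboxane receptor *Tbxa2r* was too low to be tested, with 0 to 6 counts in the vehicle cultures and 8 to 14 in the TGF-β1 cultures. *Ptgfrn*, which encodes a membrane protein that binds FP and dampens its ligand binding, rose by a log2 fold change of 0.50 (standard error 0.03).

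**Figure D4:**
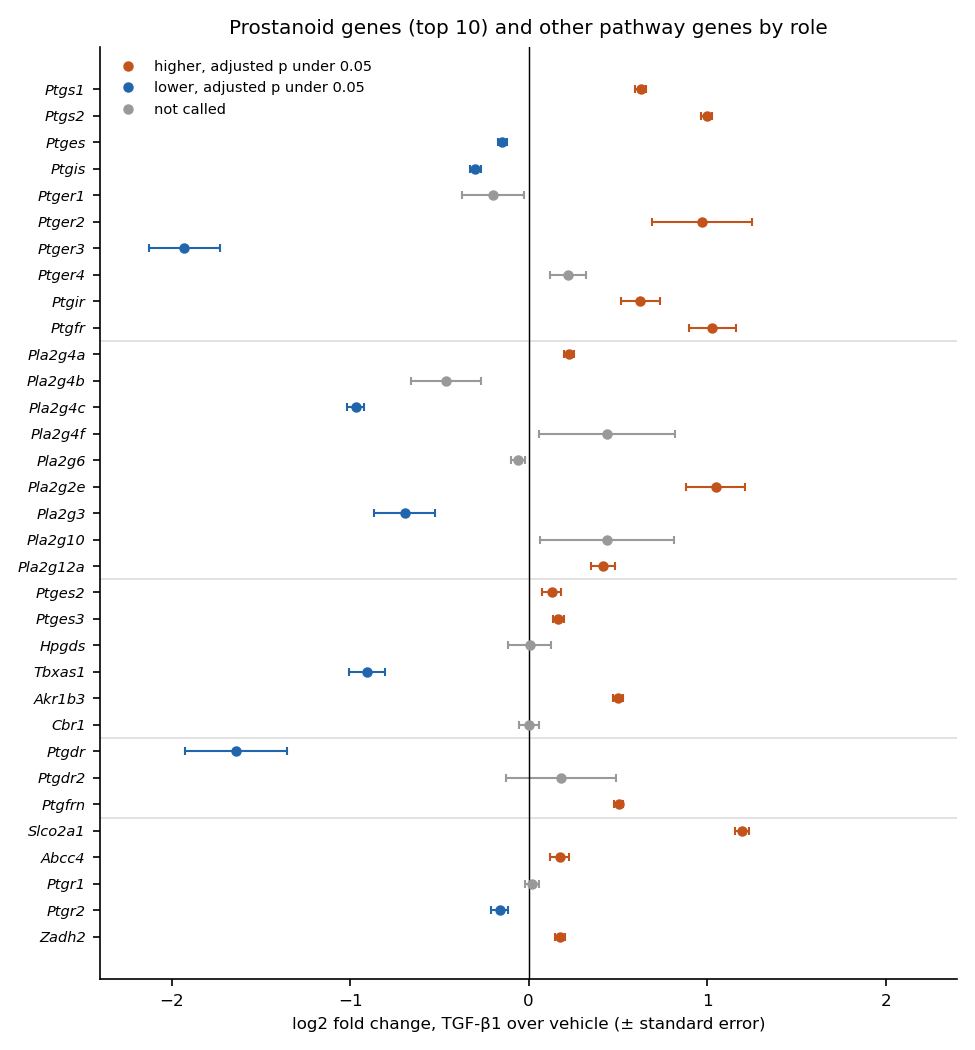
Log2 fold change of TGF-β1 over vehicle (horizontal axis) with its standard error for the 10 prostanoid genes and the 23 tested genes of the rest of the pathway, grouped by role between grey lines in the order substrate release, synthases, receptors, and transport and breakdown. *Ptger3* and *Ptgdr* are farthest to the left, at -1.93 and -1.64, and *Slco2a1* is farthest to the right, at 1.20.

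The sister branch turns arachidonic acid into leukotrienes. Of its 11 genes, 8 were tested and 3 were higher, namely *Lta4h* (log2 fold change 0.12), *Ltb4r1* (0.76) and *Ltb4r2* (0.66), and the other 5 were not called, so 3 of 8 passed against 41.3% of all genes tested. *Alox5*, the enzyme that opens this branch, was at 1.41 ± 0.381 CPM with vehicle and 1.73 ± 0.308 CPM with TGF-β1 (SD, n = 4 each, adjusted p = 0.201, edgeR).

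Macrophages and microglia also make prostanoids, and their 10 markers were therefore set beside the enzymes. The markers summed to 8.33 to 9.26 CPM in the vehicle cultures and 9.57 to 11.4 CPM in the TGF-β1 cultures. *Cd68* was at 4.51 to 6.54 CPM and *Csf1r* at 0.986 to 2.88 CPM. *Cx3cr1* was at 0.635 to 1.33 CPM and *Ptprc* at 0.498 to 0.904 CPM. *Aif1*, *Itgam* and *Adgre1* had at most 25 counts. *C1qb* was at 0 in every culture, and *C1qa* and *Tyrobp* had at most 2 counts. Of the 6 tested, *Csf1r* was higher with TGF-β1 (log2 fold change 0.73, adjusted p = 0.000222, edgeR) and the others were not called. The part of such cells in the values of the enzymes was not tested.

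For the 3 called genes with the largest changes at a mean of at least 1 CPM, the most similar profiles among 16482 other genes were sought by the root mean square difference in log2 CPM over the 8 cultures, after centring on the vehicle mean. Closest to *Ptgs2* were *Ephb2*, *Skil* and *Frrs1*, with differences of 0.0303, 0.0390 and 0.0411. *Skil* is one of the 7 TGF-β response genes and went from 103.8 ± 2.99 to 203.5 ± 7.27 CPM (SD, n = 4 each). Closest to *Ptgfr* were *Tspan7*, *Adgrl3* and *Gm38211*, at 0.0662 to 0.0673. *Frmd4b*, *Frem1* and *Gm5089* were closest to *Ptger3*, at 0.106 to 0.184. Since the 8 cultures form 2 groups, such likeness mostly restates a similar log2 fold change.

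**Figure D5:**
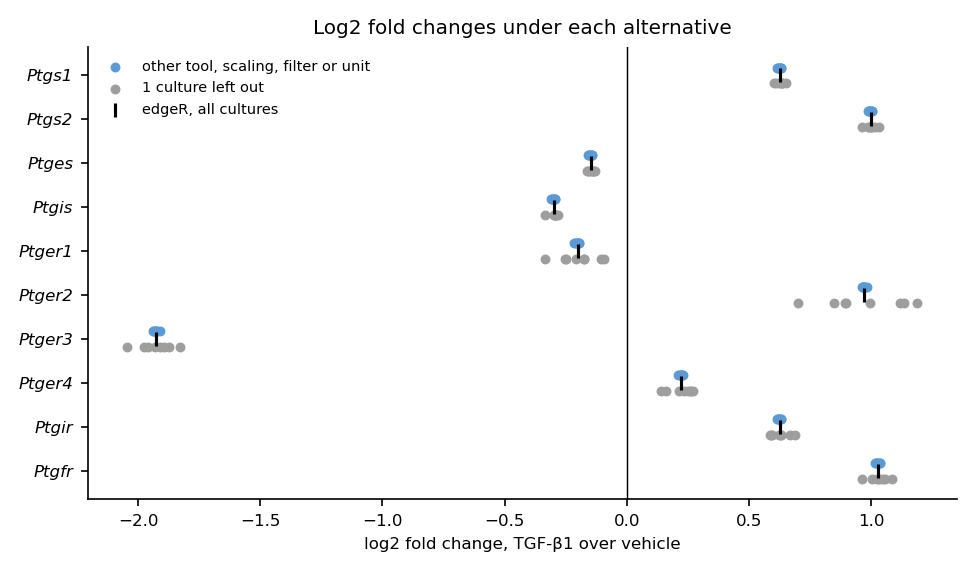
Log2 fold change (horizontal axis) of each gene with edgeR on all cultures (black tick), with another tool, scaling, filter or count unit (blue), and with 1 culture left out (grey). No point crosses 0, and the widest spread is that of *Ptger2*, from 0.70 to 1.19.

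As the plot of alternatives shows, each of the 10 genes kept its direction in all 15 alternative fits. The number called was 8 in every fit that changed the tool, scaling, filter or count unit, and 7 to 9 when a culture was left out.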

How the data were processed

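Counts per gene were deposited by the authors without normalization, 1 library per culture. Per the methods and the submitters' processing notes, reads from stranded total RNA libraries were aligned to mm10 with STAR 2.7.5c in its 2-pass mode, duplicates were removed with SAMtools 1.15, and reads were counted with featureCounts 2.0.3. Whether counting used strand, with which annotation and with what rule for shared reads is not given in the sources used here.

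Symbols, coordinates and exon lengths came from GENCODE M21 on GRCm38, the assembly behind mm10, with a symbol for 54495 of 54532 identifiers. Promoter sequences came from RefSeq on GRCm38.p6. The test was edgeR 4.0.16 in R 4.3.3 (filterByExpr, TMM, robust quasi-likelihood fit, Benjamini-Hochberg over 22544 genes, threshold 0.05), and the standard error was the log2 fold change divided by the root of F. Totals were compared with an exact permutation test. A count of 3 is 0.0631 to 0.0657 CPM. From 68.5% to 70.2% of counts between 1 and 20 were even, so mates may have been counted separately. With counts halved, pairs within a group differed by a chi-square of 1.14 to 2.10 per degree of freedom, and each culture was kept as 1 replicate.

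All 10 genes were named, other pathway genes if called, and 3 genes of similar profile for each of 3 genes. The genes and lists were chosen with earlier results of these data known. *Gm17173*, *Gm43621*, *Gm15937*, *Ttc33*, *Alox5*, *Hpgd* and *Tbxa2r* were named after values were seen. Alternatives were DESeq2 1.42.0 without a filter, other scalings (DESeq2 size factors, library totals, upper quartile), other filters, halved counts, each culture left out, and transcript length. The code was tested on simulated data. A result on 1 further gene is not reported here.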

Additional observations from a re-analysis of the deposited data

Results flagged for a closer look

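The 10 prostanoid genes and the tested pathway and leukotriene genes gave 82 groups of 4 values, and in 4 of them the highest or lowest culture lay far from its neighbour, about the 4.1 that chance gives at 1 in 20. For *Ptgis*, TGF-β1 replicate 5 had 89.5 CPM and the next culture 82.8 CPM. For *Ptges3*, TGF-β1 replicate 6 had 213.3 CPM and the next 201.5 CPM. For *Slco2a1*, vehicle replicate 3 had 28.1 CPM and the next 25.5 CPM. For *Alox5ap*, vehicle replicate 4 had 0.260 CPM and the next 0.394 CPM.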

How the results depend on the processing

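No result reversed in the 15 alternative fits, which changed the tool, scaling, filter, count unit or cultures. Across the 8 fits that each drop 1 culture, the log2 fold change of *Ptger2* ranged from 0.70 to 1.19 (adjusted p from 0.00110 to 0.0653, edgeR) and lost its call without TGF-β1 replicate 7. That of *Ptger4* ranged from 0.14 to 0.27 (adjusted p from 0.0466 to 0.344) and passed without vehicle replicate 1. The cause was not tested. The number of leukotriene genes called lower was 0 with edgeR and with DESeq2, 1 at an unadjusted p under 0.05, and 0 to 1 with each culture left out. All counts of called genes, including the 9304 over all genes (8559 to 9311), otherwise stayed within 1.5 times. With the longest transcript, 12 of 20 per-length levels moved by more than 1 SD. The *Ptger3* share without *Ptger1* (31.2% and 8.74%) was added after seeing the data. No paired analysis was possible because the labels give the groups no shared replicate numbers. *Ptger2* had 16 to 67 counts per culture, the lowest range of the 10 genes with *Ptger3* at 22 to 114.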
